A study of Mus musculus with 4 samples.

Results

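The 3p arms of the miR-344 family were examined in small RNA libraries of the mouse brain cortex. They were chosen by name, as every mature miRNA of the deposited table that is a 3p arm and is named miR-344, with any letter or none. The rule found 7 of the 942 mature miRNAs (428 of the 942 are 3p arms), namely miR-344d-3p, miR-344-3p, miR-344b-3p, miR-344c-3p, miR-344f-3p, miR-344e-3p and miR-344h-3p. The libraries came from 4 mice of the strain B6C3 aged 9 months, 2 wild type (WT1 and WT2) and 2 APPswe/PS1deltaE9 double transgenic (APP3 and APP4), a model of Alzheimer's disease (AD). The AD mice carry an amyloid precursor protein with the Swedish mutation and a presenilin 1 that lacks exon 9, and the promoter of the transgenes is not given in the sources used here. Per the study's methods there were 2 sibling pairs, namely WT1 and APP4, and WT2 and APP3, so each pair has 1 mouse of each genotype.

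A miRNA is cut from a hairpin precursor, and each side of the stem can give a mature strand, named 5p or 3p. Usually one strand is kept by an Argonaute protein and guides it to messenger RNAs, and the other is degraded. The guide finds its targets mainly through its seed, here taken as bases 2 to 8. The miR-344 family is known from the nervous system of rodents, where many copies of the hairpin lie in a cluster.

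The mature sequences (RefSeq, GRCm38.p6, all 7 found there by name) show how the members differ, and are printed 5′ to 3′ with the seed in capitals.
miR-344d-3p: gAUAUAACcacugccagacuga
miR-344-3p: uGAUCUAGccaaagccugacugu
miR-344b-3p: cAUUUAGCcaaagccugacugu
miR-344c-3p: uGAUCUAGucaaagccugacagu
miR-344f-3p: cUCUAGCCaggaccugacuac
miR-344e-3p: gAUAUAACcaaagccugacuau
miR-344h-3p: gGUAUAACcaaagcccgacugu

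These 7 strands of 21 to 23 bases carry 5 different seeds. Among the 21 pairs of members, 2 pairs shared a seed, miR-344d-3p with miR-344e-3p (AUAUAAC) and miR-344-3p with miR-344c-3p (GAUCUAG). The distance between members lay between 2 and 10 single-base changes. Only miR-344-3p and miR-344c-3p were 2 changes apart. The study's methods give at most 2 mismatches for the counting and, in another sentence, none for matches to miRBase. The study's summary of its miRNA reads counts mutant variants and matches with up to 2 mismatches. Reads of this pair could thus have been split between the 2 strands, so the low level of miR-344c-3p is uncertain. The methods also give 2 changed bases at each end. Reads of the pairs 3 changes apart, miR-344-3p with miR-344b-3p and miR-344e-3p with miR-344h-3p, could then have been split too. One further miRNA of the table had a seed of the family, among the 754 of 942 whose sequence was found.
miR-410-3p: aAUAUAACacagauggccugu

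The 7 strands come from 11 hairpins, all of them on chromosome 7 (GRCm38), minus strand. Together with the hairpin of miR-344g, whose 5p arm is in the table, they spread over 363 kb (chr7:61683124-62046248). RefSeq holds no other miRNA hairpin in this stretch or within 200 kb of it than those of miR-344. In GENCODE vM21, 7 of the 11 hairpins lie in introns of the long noncoding RNA A230057D06Rik (61704519 to 61928690) and 1 in an intron of the noncoding transcript A330076H08Rik (61930137 to 61982358), all in the sense of the host. The other 3, those of Mir344d-1, Mir344d-2 and Mir344f, overlap no other annotated gene. Ndn, an imprinted gene that is active on the paternal chromosome, starts 300.3 kb beyond the last of these hairpins, and Magel2, another such gene, 331 kb beyond it. Some members have more than one source. miR-344d-3p is identical in 3 hairpins, and miR-344-3p and miR-344h-3p in 2 each, so their reads cannot be assigned to one of them.

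**Figure D1:**
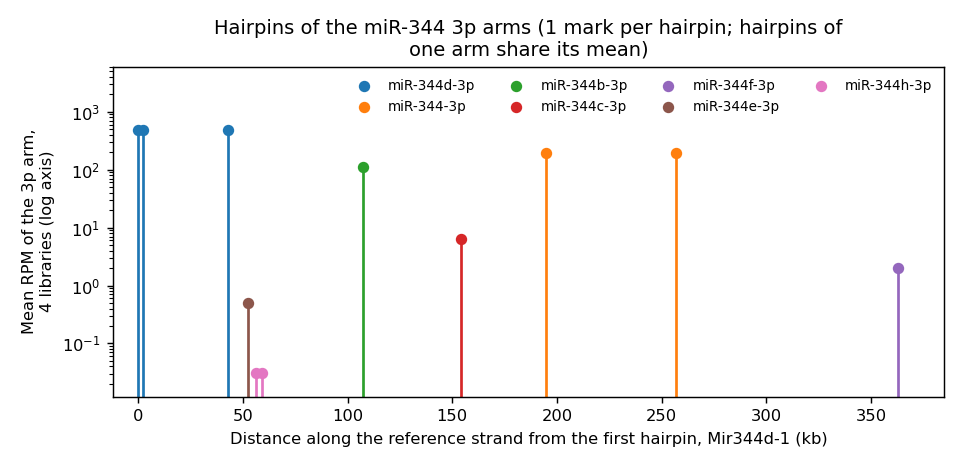
Position of the 11 hairpins that give a miR-344 3p arm, in kb from the first (horizontal axis), against the mean RPM of that 3p arm in the 4 libraries (vertical log axis). Hairpins that give the same arm are drawn at the same height. The arms with the most reads, miR-344d-3p and miR-344-3p, come from hairpins at several places in the cluster, and the hairpins of miR-344e-3p and miR-344h-3p, with under 1 RPM, lie close to one of miR-344d-3p.

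The miRNA reads numbered between 19048747 in APP4 and 26085776 in WT1, and the counts below are given as reads per 1000000 miRNA reads (RPM), a scale without correction for length. At these depths 3 reads correspond to 0.115 to 0.157 RPM. The 11 brain miRNAs checked, such as miR-124-3p and miR-9-5p, summed to between 82856 and 91301 RPM in each library, and none of them had 0 reads in a library. Lists for other cells were also summed, and their lowest and highest library were 1793 and 2140 RPM for 3 oligodendrocyte miRNAs, 3242 and 4658 for 5 blood miRNAs, 1125 and 1313 for 5 miRNAs of microglia and leukocytes, 17836 and 25330 for 3 vessel miRNAs, and 99.7 and 124.6 for 4 miRNAs of muscle and liver. APP4 had the lowest vessel sum, 17836 RPM, but most reads of that list were of miR-143-3p (316737 in APP4). miR-126-3p was not lowest in APP4, with 20151 reads there and 18754 in WT2. Nor was miR-145a-5p, with 2859 reads in APP4 and 2388 in APP3. APP4 also had the lowest blood sum, 3242 RPM, and most reads of that list were of miR-486-5p (58151 in APP4). Of the 5 blood miRNAs, 3 were called higher and 0 lower in APP4 against WT1 by the Fisher's test described below. APP4 stood apart in the list of 8 epithelial miRNAs, with 5862 RPM against 576 to 1024 in the other libraries. What part this has in the values of APP4 was not tested. The genotype fold changes of the strands and the difference of their sum are given with and without APP4. So are the family shares of miR-344d-3p and miR-344-3p and the 3p share of miR-344d. All the samples are bulk cortex, in which fewer cells that express a miRNA and less of it per cell cannot be told apart.

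A few strands carried almost all of the family's reads. miR-344d-3p, the most abundant, had 577 RPM in WT1 and 386 in WT2, against 559 in APP3 and 444 in APP4. WT1 and APP3, which are not siblings, were its high libraries, and the genotypes overlapped. miR-344-3p, the strand without a letter, had 189.9, 187, 197 and 192 RPM in the same order. All 4 libraries lay close together. miR-344b-3p had 118 RPM in WT1 and 98.3 in WT2, against 123 in APP3 and 112 in APP4, with the lowest library and the highest belonging to one sibling pair.

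The other 4 members were rare. For miR-344c-3p, 144, 129, 154 and 135 reads were counted in WT1, WT2, APP3 and APP4, which is 5.52, 5.84, 7.24 and 7.09 RPM. miR-344f-3p had 45, 42, 48 and 40 reads, or 1.73 to 2.26 RPM. miR-344e-3p had 11, 13, 8 and 11 reads. miR-344h-3p, which differs from miR-344e-3p by 3 bases, had 2 reads in WT1, 1 in APP3 and 0 in WT2 and APP4, at or under the level of 3 reads that this depth can show. By mean RPM the members ranked 111 (miR-344d-3p), 171 (miR-344-3p), 208 (miR-344b-3p), 406 (miR-344c-3p), 494 (miR-344f-3p), 615 (miR-344e-3p) and 851 (miR-344h-3p) among the 942 miRNAs. No 2 neighbours in this order had overlapping ranges over the 4 libraries, although for miR-344h-3p the counts are too few to place it.

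**Figure D2:**
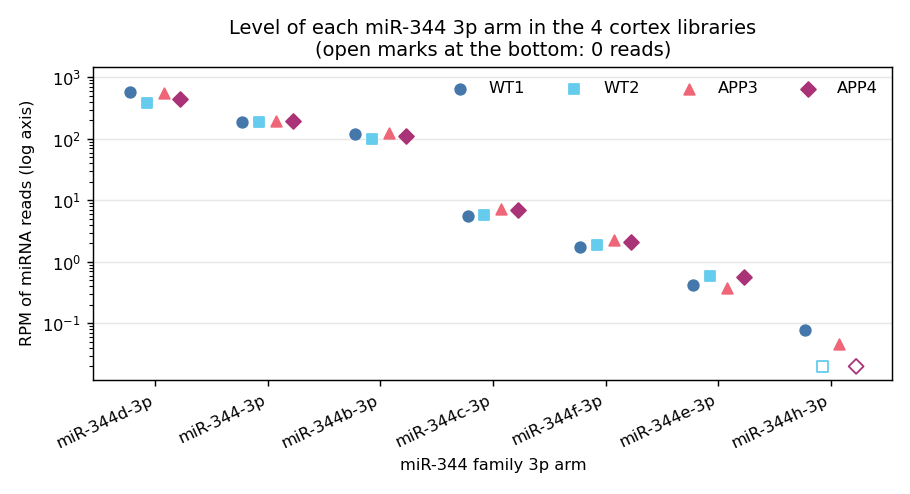
RPM of miRNA reads (vertical log axis) of each miR-344 3p arm in WT1, WT2, APP3 and APP4, with 1 mark per library and an open mark at the bottom for 0 reads. The levels run from 386 to 577 RPM for miR-344d-3p down to between 0 and 2 reads for miR-344h-3p, and the 4 marks of miR-344-3p lie between 187 and 197 RPM.

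To ask whether the strands differ by genotype, all 4 mice entered a quasi-likelihood fit in edgeR, with p-values adjusted by the Benjamini-Hochberg method across the 623 miRNAs that passed its filter on low counts. Of the 7 members 6 passed, and none of the 6 was called at an adjusted p under 0.05, nor was any of the 623 (0.00% called in either direction). With 2 mice per genotype, this does not show that the genotypes are alike. An unadjusted p under 0.05 was found for 36 of the 623 and for 0 of the 6 members, and DESeq2 likewise called 0 miRNAs at an adjusted p under 0.05 (28 unadjusted). With the sibling pair as a block, edgeR called 2 of the 623, miR-409-5p and miR-100-5p (adjusted p = 0.0166 each, named after their values were seen), neither of them a member. The study also reported both as lower in AD mice by qRT-PCR, in more mice than were sequenced. The log2 fold change of AD against WT was -0.08 for miR-344d-3p (SE 0.28, 95% interval -0.74 to 0.59), -0.09 for miR-344-3p (SE 0.20, -0.55 to 0.38) and -0.02 for miR-344b-3p (SE 0.23, -0.56 to 0.52). For the rarer strands it was 0.20 for miR-344c-3p (SE 0.20, -0.28 to 0.68), 0.13 for miR-344f-3p (SE 0.27, -0.50 to 0.77) and -0.22 for miR-344e-3p (SE 0.49, -1.38 to 0.94). The adjusted p of the 6 lay between 0.958 and 0.995 in edgeR. Their median log2 fold change was -0.05, beside -0.02 over all 623 miRNAs. Without APP4 the values were 0.12 for miR-344d-3p, -0.02 for miR-344-3p, 0.09 for miR-344b-3p, 0.27 for miR-344c-3p, 0.23 for miR-344f-3p and -0.49 for miR-344e-3p. Each library is 1 mouse, and these p-values rest on the spread between the 4 of them. The fit draws the spread of each miRNA towards that of all 623, so the SE of a member does not reflect its own spread alone.

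In RPM, the mean of miR-344d-3p was 481 ± 136 in the WT mice and 502 ± 81.3 in the AD mice (SD, n = 2 each). For miR-344-3p it was 188 ± 2.02 and 194.7 ± 3.48, and for miR-344b-3p 108 ± 14.0 and 117 ± 7.63. In 3 of the 6 tested members, miR-344-3p, miR-344c-3p and miR-344f-3p, both AD mice lay above both WT mice, as they did for 27.0% of the 623 miRNAs. In 0 of the 6 were both below, as in 8.99% of the 623. When library sizes were corrected by TMM (trimmed mean of M-values), this held for miR-344c-3p alone, and for 14.9% of the 623. The summed 3p reads of the family were 893 RPM in WT1 and 679 in WT2, against 889 in APP3 and 758 in APP4. The log2 difference of the genotypes in these sums was 0.08 (exact permutation test over the mice, two-sided, p = 1, where the smallest p that 2 against 2 mice allow is 0.333), and it turned to -0.06 with TMM. Without APP4 it was 0.19.

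Within the sibling pairs, reads were compared by two-sided Fisher's exact test, with a call at a false discovery rate (FDR) under 0.05 and at least 1.5-fold. Such a test speaks for the 2 libraries, not for their genotypes. Scaled to miRNA reads, none of the 7 members was called between APP4 and WT1, where 11.6% of the miRNAs with a read were (9.68% higher and 1.89% lower in APP4). None was called between APP3 and WT2 either, where 6.81% were (3.35% higher and 3.46% lower in APP3). The log2 fold change of miR-344d-3p was -0.38 (counting SE 0.02, FDR 1.44e-83) between APP4 and WT1 and 0.54 (counting SE 0.02, FDR 2.28e-152) between APP3 and WT2. It was thus lower in the AD mouse of one pair and higher in that of the other, both times by less than 1.5-fold. miR-344b-3p had -0.08 (counting SE 0.04, FDR 0.127) and 0.32 (counting SE 0.04, FDR 1.17e-13) in the same order. miR-344-3p had 0.02 (counting SE 0.03, FDR 0.727) and 0.08 (counting SE 0.03, FDR 0.0470). For miR-344c-3p the values were 0.36 (counting SE 0.17, FDR 0.0907) and 0.31 (counting SE 0.17, FDR 0.176), and for miR-344f-3p 0.29 and 0.24 (counting SE 0.31 and 0.30, FDR 0.576 and 0.682).

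The same test between mice of one genotype gave differences of like size. Between WT2 and WT1 the log2 fold change of miR-344d-3p was -0.58 (counting SE 0.02, FDR 1.45e-199), its largest among the 4 pairs of libraries compared. Between APP4 and APP3 it was -0.33 (counting SE 0.02, FDR 1.48e-58). In WT2 against WT1 and APP4 against APP3, miR-344b-3p had -0.26 and -0.13, and miR-344-3p -0.02 and -0.04. No member was called at 1.5-fold in these pairs either, where 10.1% (7.62% higher and 2.50% lower in WT2) and 8.05% (5.07% higher and 2.98% lower in APP4) of the miRNAs were. At an FDR under 0.05 and any fold, 1 of the 7 members differed between APP4 and WT1 (40.3% of all miRNAs), 3 between APP3 and WT2 (36.0%), 2 in WT2 against WT1 (40.5%) and 2 in APP4 against APP3 (35.2%). The 4 comparisons share libraries and are not independent. TMM library sizes shift all values of APP4 against WT1 by -0.25. With them miR-344d-3p had a log2 fold change of -0.63 in this pair and -0.69 between the WT mice. Both lay past the limit of 1.5-fold, so this member was called in both (FDR 4.6e-234 and 4.3e-279). With TMM, 85 of 899 miRNAs were called in APP4 against WT1 and 77 of 879 between the WT mice. miR-344-3p in APP4 against WT1 turned to -0.24.

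**Figure D3:**
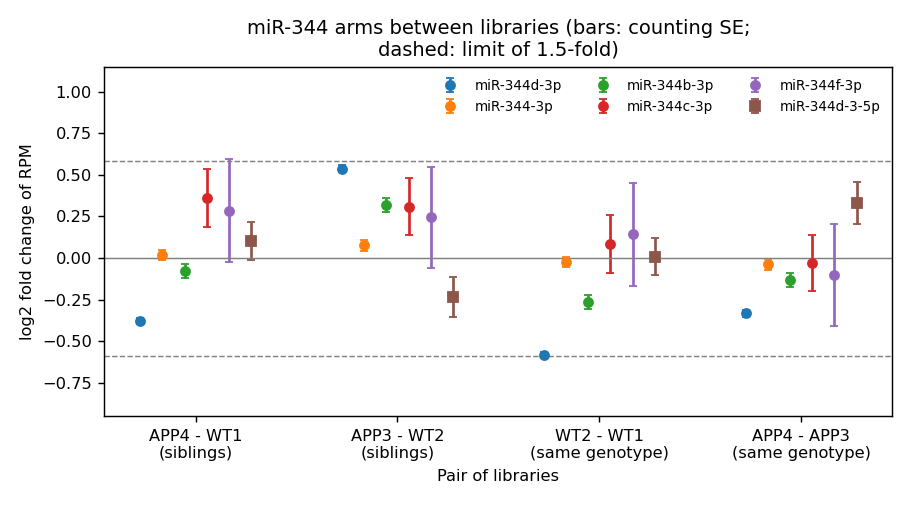
Log2 fold change of RPM (vertical axis) of 5 miR-344 3p arms and of miR-344d-3-5p in 4 pairs of libraries, with the counting SE as bars and the limit of 1.5-fold as dashed lines. miR-344d-3p lies at -0.38 and 0.54 in the sibling pairs and at -0.58 and -0.33 between mice of one genotype, while miR-344-3p stays between -0.04 and 0.08.

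The makeup of the family moved with the level of miR-344d-3p, which follows in part from its having most of the reads. This strand had 64.6% of the family's 3p reads in WT1 (64.0 to 65.3, Wilson, 95%) and 56.8% in WT2 (56.0 to 57.6), against 62.9% in APP3 (62.2 to 63.6) and 58.6% in APP4 (57.8 to 59.4). Intervals here cover counting error only, since reads copied from a single molecule by PCR are counted apart. miR-344-3p had 21.3%, 27.5%, 22.2% and 25.3% of the reads, and miR-344b-3p 13.23%, 14.5%, 13.8% and 14.8%. The 3 abundant strands together had at least 98.7% in each library. The mean share of miR-344d-3p was 60.7 ± 5.57% in the WT mice and 60.8 ± 3.05% in the AD mice (SD, n = 2 each; exact permutation test, two-sided, p = 1). The difference of AD less WT was 0.05 percentage points, and 2.21 without APP4. For miR-344-3p it was -0.64, and -2.23 without APP4. Counted as reads of miR-344d-3p for each read of miR-344-3p, the ratio was 3.04 in WT1 and 2.06 in WT2, against 2.84 in APP3 and 2.31 in APP4. The 2 strands thus did not keep a fixed ratio between mice of one genotype.

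**Figure D4:**
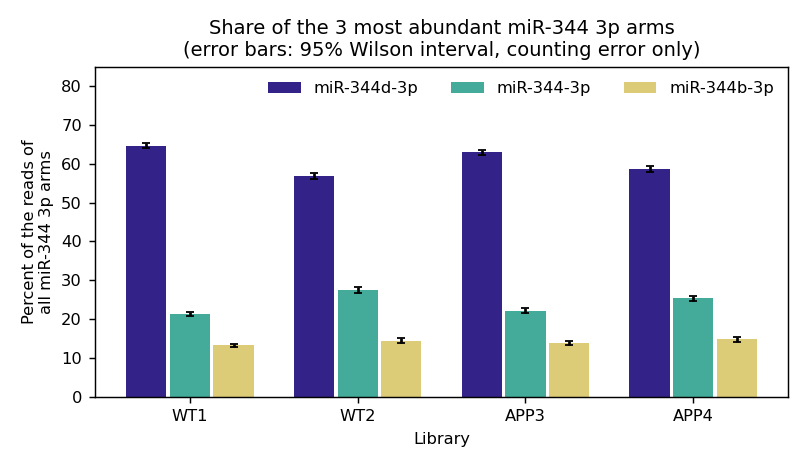
Percent of the reads of all miR-344 3p arms (vertical axis, from 0) taken by the 3 most abundant strands in each library, with 95% Wilson intervals as error bars. miR-344d-3p takes 56.8% to 64.6%, more in WT1 and APP3 than in WT2 and APP4, and miR-344-3p takes 21.3% to 27.5% in the opposite order.

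The 5p arms, which the choice of members did not use, had few reads beside the 3p arms of the same hairpins. Of 7 such arms in the table, miR-344d-3-5p alone had over 20 reads in a library, and at rank 351 it stood above 4 of the 3p arms. miR-344-5p had 1 read in WT1 and 0 in the other 3 libraries beside 3661 to 4953 reads of miR-344-3p, so that the 3p share in WT2, for example, was at least 99.9% by the 95% Wilson interval. In miR-344f, the 3p arm had 81.8% of the reads of both arms in WT1 and 71.2% in WT2, against 90.6% in APP3 and 80.0% in APP4, from 217 reads of both arms in the 4 libraries. Scaled to miRNA reads, miR-344f-5p was the only arm of the family that the test of library pairs called in a sibling pair. It had 17 reads in WT2 and 5 in APP3 (log2 fold change -1.62, counting SE 0.71, FDR 0.0480). In miR-344e the 5p arm had 0 to 3 reads. Its sequence is identical to that of miR-344h-5p, so these reads cannot be placed. miR-344g-5p had 5 reads in WT1 and 0 elsewhere. No 5p arm named for miR-344b, miR-344c or miR-344h was among the 7 in the table.

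The 5p arms of miR-344d differ between its 3 hairpins where the 3p arms do not, and are shown for that reason with the seed in capitals.
miR-344d-1-5p: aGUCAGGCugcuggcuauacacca
miR-344d-2-5p: aGUCUGGUugcuggcuauauucca
miR-344d-3-5p: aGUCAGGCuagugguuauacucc

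These strands lie 4 to 7 single-base changes apart, more than the 2 mismatches given for the counting. The methods also give 2 changed bases at each end, so whether reads were split between these strands is not settled. Nearly all reads were of miR-344d-3-5p, with 363 reads in WT1 and 309 in WT2, against 253 in APP3 and 285 in APP4, whereas miR-344d-1-5p had 2 reads in each library and miR-344d-2-5p had 0, 0, 2 and 1. These counts are of stable 5p strands, and the 3p reads that each hairpin gave are not separated by them. The hairpin of miR-344d-3-5p, Mir344d-3 (chr7:61726249-61726328, minus strand, in an intron of A230057D06Rik), is printed with its 3p arm in capitals.
Mir344d-3: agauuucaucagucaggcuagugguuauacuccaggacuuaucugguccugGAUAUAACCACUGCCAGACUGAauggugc

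The arms of miR-344d moved apart between libraries. miR-344d-3-5p had 13.9 RPM in WT1 and 14.0 in WT2, against 11.9 in APP3 and 15.0 in APP4. It was thus lowest in APP3, where miR-344d-3p was high, and alike in WT1 and WT2, where miR-344d-3p differed most. Between WT2 and WT1 its log2 fold change was 0.01 (counting SE 0.11, FDR 1), against the -0.58 of miR-344d-3p. Between APP4 and APP3 it was 0.33 (counting SE 0.12, FDR 0.0257), against -0.33. The 3p share of the reads of miR-344d was 97.6% in WT1 (97.4 to 97.9, Wilson, 95%) and 96.5% in WT2 (96.1 to 96.8), against 97.9% in APP3 (97.6 to 98.1) and 96.7% in APP4 (96.3 to 97.1). WT1 and APP3 lay above WT2 and APP4 beyond these intervals. The means of the genotypes were 97.1 ± 0.82% in the WT mice and 97.3 ± 0.83% in the AD mice (SD, n = 2 each). They differed by less than the spread between mice (exact permutation test, two-sided, p = 0.667). The difference of AD less WT was 0.24 percentage points, and 0.83 without APP4.

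The seed AUAUAAC of miR-344d-3p and miR-344e-3p is also that of miR-410-3p, a miRNA from another chromosome and another family. miR-410-3p had 6949 RPM in WT1 and 7029 in WT2, against 7218 in APP3 and 6684 in APP4. The miR-344 strands made up 7.67% of the reads with this seed in WT1 and 5.21% in WT2, against 7.20% in APP3 and 6.24% in APP4. By level, most reads with the seed of the family's first member were therefore those of miR-410-3p. For the other seeds of the family no further miRNA was found among the sequences at hand.

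The spread of miR-344-3p between the libraries was small beside that of other miRNAs. The SD of its log2 RPM over the 4 libraries was 0.03, the smallest of the 379 miRNAs that averaged 10 RPM or more, whose median was 0.21. The highest library was 1.05 times the lowest, and counting error alone amounts to 0.02 on this scale. The place depended on the scaling. Per clean read its SD had rank 3 from the smallest (0.06), and with TMM rank 43 (0.10). miR-344b-3p had an SD of 0.14 (rank 75) and miR-344d-3p one of 0.28 (rank 276), above the median.

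**Figure D5:**
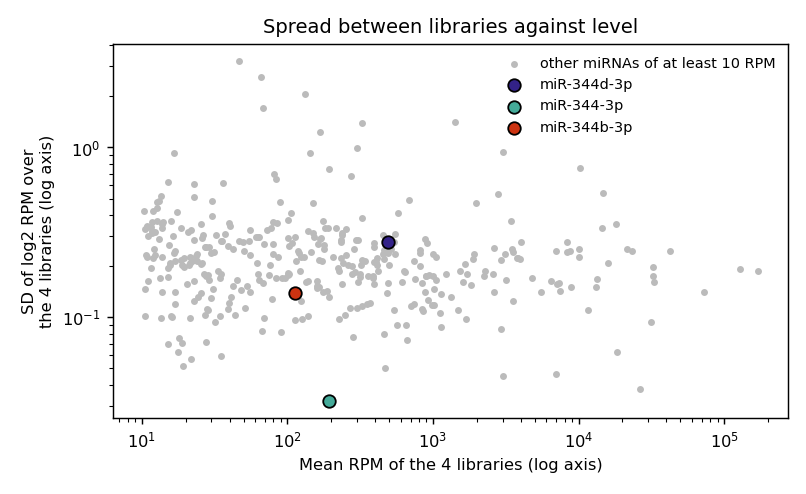
SD of log2 RPM over the 4 libraries (vertical log axis) against mean RPM (horizontal log axis) for the 379 miRNAs with at least 10 RPM, with 3 miR-344 3p arms marked. miR-344-3p has the smallest SD, 0.03, in this scaling, while miR-344d-3p, at 0.28, lies above the median of 0.21.

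Likeness of pattern was measured as the root mean square difference of log2 RPM over the 4 libraries, each less its own mean, among 375 other miRNAs of at least 10 RPM. With 4 libraries it is a description only. Nearest to miR-344d-3p were miR-532-5p (0.10), miR-582-3p (0.10) and miR-30b-3p (0.12). miR-532-5p had 416, 334, 435 and 361 RPM in WT1, WT2, APP3 and APP4, high in the same libraries. Nearest to miR-344-3p were miR-325-5p (0.03), miR-125b-1-3p (0.03) and miR-370-5p (0.03), and nearest to miR-344b-3p were miR-130a-3p (0.04), miR-532-5p (0.05) and miR-411-5p (0.05). Among the members themselves, miR-344d-3p lay 0.13 from miR-344b-3p and 0.22 from miR-344-3p, and miR-344-3p lay 0.10 from miR-344b-3p. These values cannot be set against those of the nearest miRNAs, which are the closest of 375 candidates.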

How the data were processed

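Small RNA of the cortex of 4 mice was sequenced on an Illumina HiSeq. Per the study's methods, the authors removed adapters and low-quality reads (fastx_toolkit 0.0.13.2), kept reads of 18 to 35 nt, matched them to miRBase 19 and counted mature and variant reads (CLC genomics workbench 5.5, at most 2 mismatches and 2 changed bases at each end, while another sentence allows no mismatch to miRBase). The study's summary of its miRNA reads counts mutant variants and matches with up to 2 mismatches. The deposited counts of 942 mature miRNAs are raw. Beside them the authors deposited RPM, named TPM, that are scaled to clean reads. These were used here only to recover 22851004 to 31265701 clean reads. The genome is GRCm38 in the methods and another build in the submitters' notes, and the table holds no coordinates. Labels and methods name different RNA extractions. The miRNA reads of each library are 83.4% to 88.7% of its clean reads, and each pair of libraries differed by more than sampling noise (lowest chi-square over degrees of freedom 634).

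Groups follow the labels and sibling pairs the methods. The counts were analysed with edgeR 4.0.16 under R 4.3.3 (quasi-likelihood test after filterByExpr and TMM, with the SE taken as the fold change over the square root of F) and with Fisher's exact tests (scipy 1.17.1, 0.5 read added for fold changes, Benjamini-Hochberg FDR over miRNAs with a read). DESeq2 1.42.0 was an alternative, as were other library sizes and filters, the sibling block, values scaled to 1000000, a 2-fold limit, 5 added reads, summed reads and each mouse left out. The main fit had no block. The deviations of siblings from their genotype means correlated with r = 0.24 over 252 miRNAs. Fisher's tests and the fit without the block were tested on simulated data. Named were all miR-344 arms, miRNAs sharing a seed, the 3 nearest in pattern to each member of at least 10 RPM, and lists of brain, oligodendrocyte, blood, microglia and leukocyte, vessel, epithelial, and muscle and liver miRNAs. Members and lists were chosen with earlier results of these data known.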

Additional observations from a re-analysis of the deposited data

Results flagged for a closer look

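The values of several arms had opposite signs in the 2 sibling pairs, though most did not pass the test in both. With a single mouse per genotype in a pair, whether the pairs differ was not tested. In the order APP4 against WT1, then APP3 against WT2, miRNA by miRNA, the log2 values were -0.38 and 0.54 for miR-344d-3p, -0.077 and 0.32 for miR-344b-3p, and -0.24 and 0.39 for the summed 3p reads. The signs were the reverse for the rare miR-344e-3p, with 0.45 and -0.61 from 8 to 13 reads, for miR-344f-5p, with 0.45 and -1.62 from 5 to 17 reads, and for miR-344d-3-5p, with 0.11 and -0.23. Of the single arms, miR-344d-3p passed an FDR under 0.05 in both pairs, and the others in 1 pair or none. Its difference between the 2 WT mice, -0.58, was larger than either.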

How the results depend on the processing

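With 2 mice per genotype, the 95% intervals of the 3 abundant strands reach from -0.74 to 0.59 on the log2 scale, so changes within them remain possible. The intervals are not adjusted for the number of miRNAs tested, and larger changes also went uncalled in the main fit. miR-409-5p, for example, had a log2 fold change of -1.65 there (edgeR, adjusted p = 0.768). In no alternative fit was a member called between the genotypes, with the lowest adjusted p of a member at 0.853 in edgeR, and those of the 3 abundant strands changed sign with the scaling. Without TMM they were 0.060 for miR-344d-3p, 0.047 for miR-344-3p and 0.12 for miR-344b-3p, and with the clean reads as library size 0.063, 0.038 and 0.11. The rare strands kept their sign under these scalings, with 0.33 and 0.32 for miR-344c-3p, 0.27 and 0.26 for miR-344f-3p and -0.08 and -0.09 for miR-344e-3p in the same order. For miR-344b-3p the value was also 0.0067 with DESeq2's size factors, 0.0066 in DESeq2's test, 0.013 with no filter and 0.029 above 10 RPM. The summed reads gave -0.059 with TMM. Leaving TMM out moved the median of all miRNAs from -0.02 to 0.11. With each mouse left out, 1 mouse stands against 2, and its spread is assumed to be that of the other genotype. edgeR then gave -0.35 to 0.30 for miR-344d-3p, -0.17 to -0.02 for miR-344-3p, -0.16 to 0.17 for miR-344b-3p, 0.12 to 0.27 for miR-344c-3p, 0.01 to 0.23 for miR-344f-3p and -0.49 to 0.012 for miR-344e-3p, and the summed reads -0.12 to 0.27. miR-344d-3p was at 0.30 without WT1 and 0.12 without APP4. The number of miRNAs called over the whole table was 0 to 21 with a mouse left out (21 without APP3, 5 without APP4, 3 without WT1) and 2 with the sibling pair as a block, with no member among them, though fits of 1 mouse against 2 say little on whether members differ.

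Between libraries, TMM brought miR-344d-3p past 1.5-fold in APP4 against WT1 (-0.63) and WT2 against WT1 (-0.69), where it was then called. TMM also turned miR-344-3p in the first pair (-0.24) and miR-344c-3p in the second (-0.023). With clean reads miR-344-3p was at 0.066 in WT2 against WT1. The miRNAs called, 104, 61, 89 and 73 in APP4 against WT1, APP3 against WT2, WT2 against WT1 and APP4 against APP3, became 32, 23, 21 and 23 scaled to 1000000 reads, 50, 30, 36 and 39 above 10 RPM, and 50, 23, 38 and 38 at 2-fold. Scaled in this way, miR-344c-3p, miR-344f-3p and miR-344e-3p kept under 10 reads and were left out. Per clean read the mean levels were 164 RPM for miR-344-3p, 96.7 for miR-344b-3p, 5.51 for miR-344c-3p and 1.71 for miR-344f-3p. For the shares, the 5 values from the summed reads of each genotype moved by less than the spread between mice. The 20 values with a mouse left out could not move by more than that spread with 2 mice per genotype. They therefore say nothing on how stable the shares are.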
